A study of Homo sapiens with 4 samples.

Results

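The mitochondrial ribosomal protein genes are the rows of the count table whose symbol is MRPL or MRPS followed by a number and, in some, a letter. There are 78 of them among 19381 genes, 49 named for the large subunit (MRPL) and 29 for the small subunit (MRPS), and all 78 passed the filter on low counts. Their transcripts were read in 4 RNA sequencing libraries of SK-LMS-1, a leiomyosarcoma cell line that the labels assign to the uterus. A pair of libraries came from cells given 2-D08 at 50 µM for 48 h, and the other pair from untreated cells of the same line. 2-D08 is a flavone used to block the attachment of SUMO, a small protein modifier, to other proteins. No genetic change is labelled in either group, a vehicle is not named for the untreated cells, and all 4 libraries come from a single cell line.

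Mitochondria carry their own ribosome, which translates the few mRNAs encoded by mitochondrial DNA, all for subunits of the respiratory chain and ATP synthase. Its RNAs are made inside the organelle, but its proteins are encoded in the nucleus, translated in the cytosol and imported. Some of these proteins descend from bacterial ribosomal proteins and others are found only in mitochondrial ribosomes. The large subunit joins amino acids and holds the exit tunnel for the growing chain, and the small subunit reads the mRNA. MRPS18A and MRPS30 carry an S name but lie in the large subunit in structures, and MRPS36 has been assigned to the alpha-ketoglutarate dehydrogenase complex. Names were followed here. Counting by place instead gave 51 large and 26 small subunit members with the same numbers of calls.

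Library totals ran from 14796702 to 31300635 counts. In the libraries with the higher totals, 2-D08 replicate 2 and untreated replicate 1, 87% and 87.9% of counts above 20 were even numbers, against 50.3% and 49.6% in the other library of each group. Repeated counting of a read would give even numbers; its part was not tested, and the counts of these libraries may overstate how many reads lie behind them. Levels below are CPM, counts scaled to library size and, between libraries, by TMM factors, unless TPM, which also corrects for transcript length, is named. The labelled smooth muscle origin was checked on 8 marker genes. DES had no count in any library, MYOCD reached at most 0.133 CPM, MYH11 at most 0.778 CPM and ACTA2 ran from 3.06 to 6.64 CPM. MYLK, MYL9, TAGLN and CNN1 were detected in every library and called lower after 2-D08. Of the immune and endothelial markers, PTPRC stayed at or below 0.519 CPM, VWF at or below 0.0674 CPM and CDH5 at or below 1.45 CPM, while CD68, LCP1 and PECAM1 were called higher after 2-D08. LCP1 and PECAM1 were low throughout. LCP1 had 4.58 and 5.77 CPM in the 2-D08 libraries and 1.21 and 0.787 CPM in the untreated ones. PECAM1 had 1.2 and 1.3 CPM against 0.472 and 0.121 CPM, from counts of 18 and 40 against 14 and 2. Of the epithelial markers, EPCAM and CDH1 stayed at or below 0.809 CPM, KRT18 ran from 182 to 217 CPM, and KRT8 and KRT19 were called lower. The part of these differences in the results below was not tested.

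Transcripts of the mitochondrial ribosome differed little after 2-D08, and a smaller share of them passed the test than of all genes. The gap lay in the genes called lower, while the share called higher was near that of all tested genes. Of 78 members, 15 (19.2%) passed the test, 13 higher (16.7%) and 2 lower (2.56%). The test was edgeR's quasi-likelihood test, two-sided, with Benjamini-Hochberg adjustment over 12906 tested genes and a threshold of 0.05. By the same rule 4376 tested genes were called (33.9%), of which 2201 were higher (17.1%) and 2175 lower (16.9%). Among the 9695 tested genes within the members' range of mean level, 36% were called. A single member, MRPS27, passed a 1.5-fold difference in either direction (1.28%), against 2643 of all tested genes (20.5%). Among the tested genes within the members' range of mean level the share was 15.5%. The 95% confidence interval lay wholly inside 1.5-fold for 57 of 78 members (73.1%) and for 49% of all tested genes. Within the same range of mean level it did so for 56.2%. These shares describe the members; no test compares them with other genes. In bulk RNA, fewer cells of a kind and less RNA per cell cannot be told apart.

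**Figure D1:**
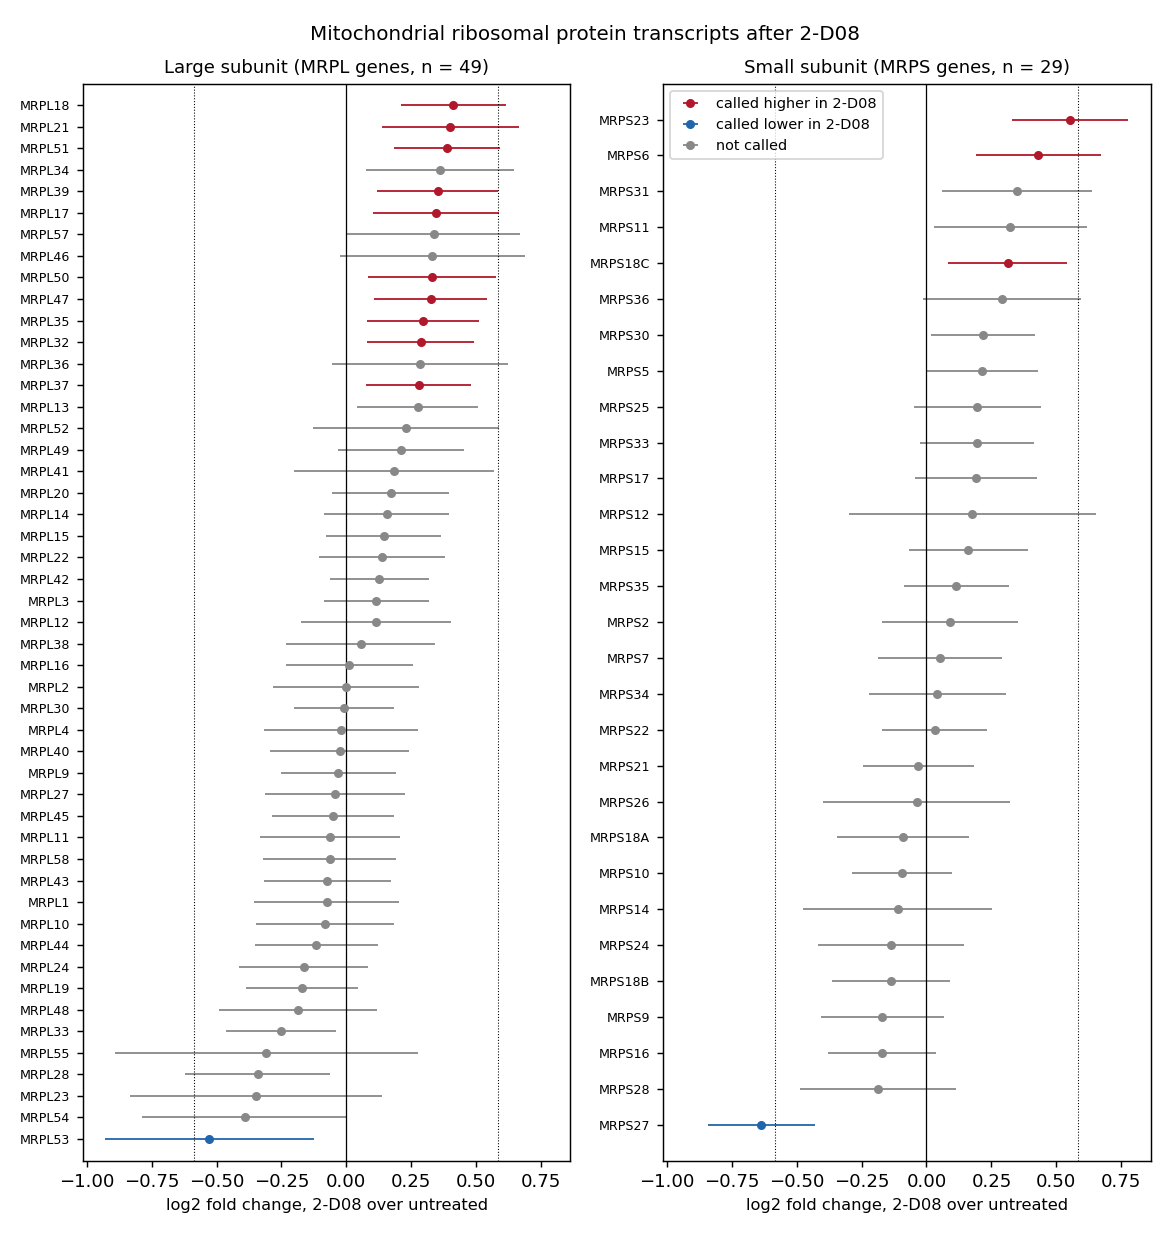
Log2 fold change of CPM, 2-D08 over untreated (x axis), for the 49 large subunit (left) and 29 small subunit (right) genes, with 95% confidence intervals from edgeR's quasi-likelihood fit. Red and blue points passed the adjusted threshold of 0.05, grey points did not, and dotted lines mark 1.5-fold; only MRPS27 lies beyond a dotted line.

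The start regions of 5 called members are shown, the pair with the largest difference in each direction and 3 that carry elements often described upstream of such genes. Each sequence runs 5′ to 3′ on the gene's strand from 120 bases before to 30 bases into the transcript, from RefSeq on GRCh38.p14. Capitals mark matches to NRF1 (GCGCATGC), GABP/ETS (CCGGAAG) or YY1 (AAGATGGC) letters on either strand, and overlapping matches form 1 run.
MRPS27 (chr5:72320211-72320360, minus strand): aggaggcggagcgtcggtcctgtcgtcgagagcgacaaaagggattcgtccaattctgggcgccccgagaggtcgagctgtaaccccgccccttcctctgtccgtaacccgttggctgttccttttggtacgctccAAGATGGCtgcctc
MRPS23 (chr17:57850015-57850164, minus strand): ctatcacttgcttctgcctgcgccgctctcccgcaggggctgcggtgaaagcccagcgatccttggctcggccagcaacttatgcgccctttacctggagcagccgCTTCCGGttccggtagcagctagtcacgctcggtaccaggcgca
MRPL51 (chr12:6493233-6493382, minus strand): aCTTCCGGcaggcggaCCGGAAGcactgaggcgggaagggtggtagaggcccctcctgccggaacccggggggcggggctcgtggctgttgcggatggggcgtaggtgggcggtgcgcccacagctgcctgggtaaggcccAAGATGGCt
MRPL17 (chr11:6683311-6683460, minus strand): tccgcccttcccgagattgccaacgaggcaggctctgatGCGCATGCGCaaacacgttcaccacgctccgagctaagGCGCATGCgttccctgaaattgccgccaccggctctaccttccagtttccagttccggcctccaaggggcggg
MRPL53 (chr2:74472651-74472800, minus strand): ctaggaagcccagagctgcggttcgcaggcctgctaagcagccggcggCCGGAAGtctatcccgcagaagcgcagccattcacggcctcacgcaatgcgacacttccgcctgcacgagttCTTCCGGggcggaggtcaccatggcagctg
MRPS27, the most reduced member, holds a YY1 match starting at position 17 of the transcript. MRPS23, the most increased, holds a GABP/ETS match starting 14 bases before it, and MRPL53, which was lower, holds GABP/ETS matches as well. MRPL17 holds 3 NRF1 matches, of which a pair overlap.

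Motif shares were counted over the 69 members with a RefSeq promoter in the table, 42 large and 27 small, in windows from 250 bases before to 50 bases after the start. GABP/ETS letters were present in 40.5% of large and 44.4% of small subunit promoters, against 19.4% of the 10593 promoters of tested genes and 10.7% of all 27305. YY1 letters were present in 28.6% of large and 29.6% of small subunit promoters, against 5.32% of tested genes. NRF1 letters stood in 9.52% and 7.41%, against 5.44%. The E-box (CACGTG), bound by MYC and related factors, stood in 11.9% of large and 3.7% of small subunit promoters, against 9.98%. The matches are counts of letters and do not show that a factor binds.

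The summed level of the large subunit genes was slightly higher after 2-D08. It was 2458 and 2373 CPM in the 2-D08 libraries, against 2216 and 2257 CPM in the untreated ones, a mean of 2416 ± 59.7 against 2237 ± 29.1 CPM (SD, n = 2 each) and a ratio of 1.08. The groups did not overlap on this scale. On the deposited TPM values they did: the sums were 3891 and 3552 TPM in the 2-D08 libraries and 3673 and 3582 TPM in the untreated ones, a ratio of 1.03. Those values were not scaled to a common total. Over all genes they summed to 741705 and 716934 in the 2-D08 libraries and to 761770 and 745964 in the untreated ones. The ratio over all tested genes was 0.967, so the overlap of the TPM sums cannot be read as a lack of difference. The median log2 fold change of the 49 genes was 0.11, beside -0.00 for all tested genes, with a range of -0.53 to 0.41 and 27 positive values. Without 2-D08 replicate 1 this median was -0.02. Levels differed far more between genes than between groups: the lowest by the mean of all 4 libraries was MRPL57 at 11.1 and 10.2 TPM in the 2-D08 libraries and 9.66 and 7.77 TPM in the untreated ones.

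By the same mean, MRPL33, MRPL51 and MRPL3 had the highest levels of the large subunit genes per transcript length. MRPL33, a small protein with a bacterial counterpart, stood at 357 and 328 TPM in the 2-D08 libraries, against 416 and 433 TPM in the untreated ones. Its groups did not overlap, but on counts its log2 fold change of -0.25 ± 0.10 (SE) did not pass the test (adjusted p = 0.063, edgeR). MRPL3, a core protein with a bacterial counterpart, had 191 and 215 TPM in the 2-D08 libraries and 176 and 194 TPM in the untreated ones, and these groups overlapped. MRPL51 is described among the called genes.

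Of the 49 large subunit genes, 10 were called higher and 1 lower (22.4%), beside 33.9% of all tested genes. The share called higher was 20.4%, beside 17.1% of all tested genes. The share called lower was 2.04%, beside 16.9%. MRPL18 and MRPL51 had the smallest p-values. MRPL18 (chr6:159789812-159798436, plus strand) is the counterpart of the bacterial protein that binds 5S rRNA and sits in the central protuberance. It had 100.1 and 94.6 CPM in the 2-D08 libraries, against 70.8 and 75.6 CPM in the untreated ones, a log2 fold change of 0.41 ± 0.09 (SE; edgeR's adjusted p = 0.00418). MRPL51 (chr12:6491886-6493841, minus strand) is a protein specific to mitochondrial ribosomes. It had 91.8 and 94.0 CPM in the 2-D08 libraries, against 68.2 and 74.0 CPM in the untreated ones, a log2 fold change of 0.39 ± 0.09 (SE; adjusted p = 0.00621). In both genes each 2-D08 library lay above each untreated one.

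The other genes called higher in the large subunit differed by similar or smaller amounts. MRPL21, with a bacterial counterpart, had 29.3 and 31.8 CPM in the 2-D08 libraries and 24.0 and 22.3 CPM in the untreated ones (log2 fold change 0.40 ± 0.12 SE). MRPL39, specific to mitochondrial ribosomes, had 44.5 and 45.4 CPM in the 2-D08 libraries and 34.3 and 36.3 CPM in the untreated ones (0.35 ± 0.11). MRPL32, whose precursor is processed inside the organelle by the m-AAA protease, had 82.3 and 91.3 CPM in the 2-D08 libraries and 70.9 and 71.7 CPM in the untreated ones (0.29 ± 0.10). MRPL37, specific to mitochondrial ribosomes, had 108 and 97.6 CPM in the 2-D08 libraries and 84.8 in each untreated one (0.28 ± 0.09). MRPL35 and MRPL50, named after their values were seen because they complete the called genes, had log2 fold changes of 0.30 and 0.33. Adjusted p-values of these 6 genes lay between 0.0221 and 0.0402 (edgeR), and no called gene had overlapping groups. A test on the same libraries favours such genes, so the lack of overlap adds no support to the calls. Groups overlapped in 31 of 78 members and in 4193 of 12906 tested genes. The calls of MRPL32, MRPL35 and MRPL50 were lost in 7, 6 and 8 of 17 alternatives, among them DESeq2. With DESeq2, 7 large subunit genes were called higher, beside 27.8% of all tested genes called in either direction.

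By place in the large subunit, the calls were spread. In the stalk and its base 20% of the genes were called, beside 33.9% of all tested genes. The stalk and its base, which recruit translation factors, comprise MRPL10, MRPL11, MRPL12, MRPL53 and MRPL54; their median log2 fold change was -0.08, and MRPL53 was the only one called. MRPL53 (chr2:74471958-74473322, minus strand) had 7.91 and 6.39 CPM in the 2-D08 libraries, against 10.5 and 9.87 CPM in the untreated ones, from deposited counts of 119 and 197 against 310 and 163, of which 197 and 310 come from the libraries with mostly even counts. Its log2 fold change was -0.53 ± 0.19 (SE; edgeR's adjusted p = 0.043). Its call was lost in 8 of 17 alternatives, among them DESeq2 (-0.52, adjusted p = 0.101) and leaving out untreated replicate 1 (-0.48), untreated replicate 2 (-0.56) or 2-D08 replicate 2 (-0.37), with log2 fold changes of -0.68 to -0.31 over all 17. MRPL54 had the largest difference among uncalled large subunit genes, with 13.3 and 9.92 CPM in the 2-D08 libraries and 16.6 and 13.3 CPM in the untreated ones (log2 fold change -0.39 ± 0.18 SE, adjusted p = 0.116), and its groups overlapped. MRPL12, the stalk protein that also binds the mitochondrial RNA polymerase, had 56.6 and 41.4 CPM in the 2-D08 libraries and 45.6 and 44.2 CPM in the untreated ones, which overlapped. MRPL10 and MRPL11 had log2 fold changes of -0.08 and -0.06 and overlapping groups.

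Around the exit tunnel, where the growing chain leaves the ribosome, MRPL17 and MRPL47 were called higher, and MRPL22, MRPL23, MRPL24 and MRPL45 were not called. The share called (33.3%) was near the 33.9% of all tested genes. MRPL17 had 53.3 and 45.5 CPM in the 2-D08 libraries, against 38.8 and 38.7 CPM in the untreated ones (log2 fold change 0.34 ± 0.11 SE, edgeR's adjusted p = 0.0308). MRPL47, the counterpart of bacterial L29, had 94.1 and 105.0 CPM in the 2-D08 libraries, against 74.5 and 85.1 CPM in the untreated ones (0.32 ± 0.10, adjusted p = 0.0243). Both genes were higher in each 2-D08 library. MRPL45, which anchors the ribosome to the inner membrane, had a log2 fold change of -0.05 ± 0.11 (SE), and the other uncalled genes of the rim ranged from -0.35 for MRPL23 to 0.14 for MRPL22. In the central protuberance, which contacts the small subunit, MRPL18 alone of 7 genes was called (14.3%). MRPL46 stood at 0.33 ± 0.17 (SE; adjusted p = 0.14). MRPL38, MRPL40, MRPL48, MRPL55 and MRPL58, a peptidyl-tRNA hydrolase built into the ribosome, lay between -0.31 and 0.06. The median of the 7 was -0.03.

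Leaving out an untreated library ended most large subunit calls while the median log2 fold change stayed of similar size. Single genes varied more. Over all 17 alternatives MRPL47 ran from 0.17 to 0.42 and MRPL35 from 0.18 to 0.38. Without untreated replicate 1 no large subunit gene was called by edgeR, beside 14.4% of all tested genes, and the median was 0.11 as before; MRPL18 stood at 0.36, MRPL51 at 0.33, MRPL21 at 0.46, MRPL17 at 0.35 and MRPL32 at 0.28. Without untreated replicate 2 only MRPL18 was called (log2 fold change 0.46, edgeR's adjusted p = 0.0435), beside 19.9% of all tested genes, and the median was 0.09. Without 2-D08 replicate 1 there were 8 called higher and 4 lower, beside 45.2% of all tested genes. Without 2-D08 replicate 2 there were 15 and 2, beside 36.7%.

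On the CPM scale the small subunit sum hardly differed. It was 1547 and 1511 CPM in the 2-D08 libraries, against 1451 and 1504 CPM in the untreated ones, a mean of 1529 ± 25.4 against 1477 ± 37.0 CPM (SD, n = 2 each) and a ratio of 1.03. The groups came within a few CPM of each other. On the deposited TPM values they overlapped, at 1985 and 1854 TPM against 1867 and 1856 TPM. The totals of those values differ between libraries. The TPM ratio was 1.03, as in the large subunit, beside 0.967 over all tested genes. This overlap therefore cannot be read as a lack of difference either. The median log2 fold change of the 29 genes was 0.09, with a range of -0.64 to 0.55 and 18 positive values. Without 2-D08 replicate 1 this median was -0.04. By the mean of all 4 libraries, MRPS15, MRPS33 and MRPS24 had the highest levels per transcript length, with means of 161, 160 and 120 TPM after 2-D08 and 152, 145 and 140 TPM in untreated cells, and none of them was called. MRPS14 was lowest by that mean, with 10.3 and 10.8 TPM in the 2-D08 libraries and 12 and 11.4 TPM in the untreated ones.

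Of the 29 small subunit genes, 3 were called higher and 1 lower (13.8%), beside 33.9% of all tested genes. The share called higher was 10.3%, beside 17.1% of all tested genes, and the share called lower 3.45%, beside 16.9%. The called genes include the largest differences of all members in each direction. MRPS27 (chr5:72219409-72320646, minus strand) encodes a pentatricopeptide repeat protein of the small subunit that has been described to bind mitochondrial RNA. It had 63.7 and 59.8 CPM in the 2-D08 libraries, against 92.9 and 98.9 CPM in the untreated ones. The deposited counts were 959 and 1844 in the 2-D08 libraries, against 2756 and 1633 in the untreated ones, and 1844 and 2756 come from the libraries with mostly even counts. With the counts of those libraries halved the log2 fold change was -0.63 (edgeR's adjusted p = 0.00023). The groups were wide apart, with a log2 fold change of -0.64 ± 0.10 (SE), 1.55-fold lower after 2-D08 (edgeR's adjusted p = 0.000227). On the TPM scale it stood at 37.0 and 39.0 in the 2-D08 libraries and 54.6 and 68.1 in the untreated ones. MRPS27 was the only member called in all 17 alternatives, with log2 fold changes of -0.72 to -0.58 and adjusted p up to 0.0312.

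MRPS23 (chr17:57834781-57850056, minus strand), specific to mitochondrial ribosomes, moved the other way. It had 75.1 and 74.2 CPM in the 2-D08 libraries, against 47.3 and 54.7 CPM in the untreated ones, a log2 fold change of 0.55 ± 0.10 (SE; edgeR's adjusted p = 0.00117). Without untreated replicate 1 the log2 fold change was 0.45 and the adjusted p 0.0641. MRPS6 (chr21:34073224-34143034, plus strand), with a bacterial counterpart, had 39.1 and 41.7 CPM in the 2-D08 libraries, against 29.3 and 30.8 CPM in the untreated ones (0.43 ± 0.11, adjusted p = 0.00946). Without untreated replicate 1 its log2 fold change was 0.39 (adjusted p = 0.179) and without untreated replicate 2 it was 0.46 (adjusted p = 0.0749), and over all 17 alternatives it lay between 0.35 and 0.47. In both genes the 2-D08 pair lay above the untreated pair.

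MRPS18C is 1 of 3 human genes, with MRPS18A and MRPS18B, that descend from a single bacterial S18 gene. It had 52.3 and 53.4 CPM in the 2-D08 libraries, against 40.3 and 45.04 CPM in the untreated ones, a log2 fold change of 0.31 ± 0.11 (SE; edgeR's adjusted p = 0.0373). On the TPM scale the difference was wider, with 85.2 and 105.2 TPM in the 2-D08 libraries and 55.4 and 62.3 TPM in the untreated ones, a log2 fold change of 0.68 on log2(TPM + 1). On counts it was not called with DESeq2 (0.31, adjusted p = 0.0648), after removal of GC and length trends (0.17, adjusted p = 0.0979), or with untreated replicate 1 (0.23, adjusted p = 0.448) or untreated replicate 2 (0.39, adjusted p = 0.124) left out. MRPS18A and MRPS18B had log2 fold changes of -0.09 and -0.14 and were not called; differences between the 3 genes were not tested. MRPS31 had the largest difference among uncalled small subunit genes, with 24.2 and 28.3 CPM in the 2-D08 libraries and 19.6 and 21.9 CPM in the untreated ones (0.35 ± 0.13, adjusted p = 0.0601). MRPS24 and MRPS28, which have bacterial counterparts despite their numbers, and MRPS30 and MRPS36 had log2 fold changes of -0.14, -0.19, 0.22 and 0.29 and were not called. Without untreated replicate 1, MRPS27 was the only small subunit gene called.

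**Figure D2:**
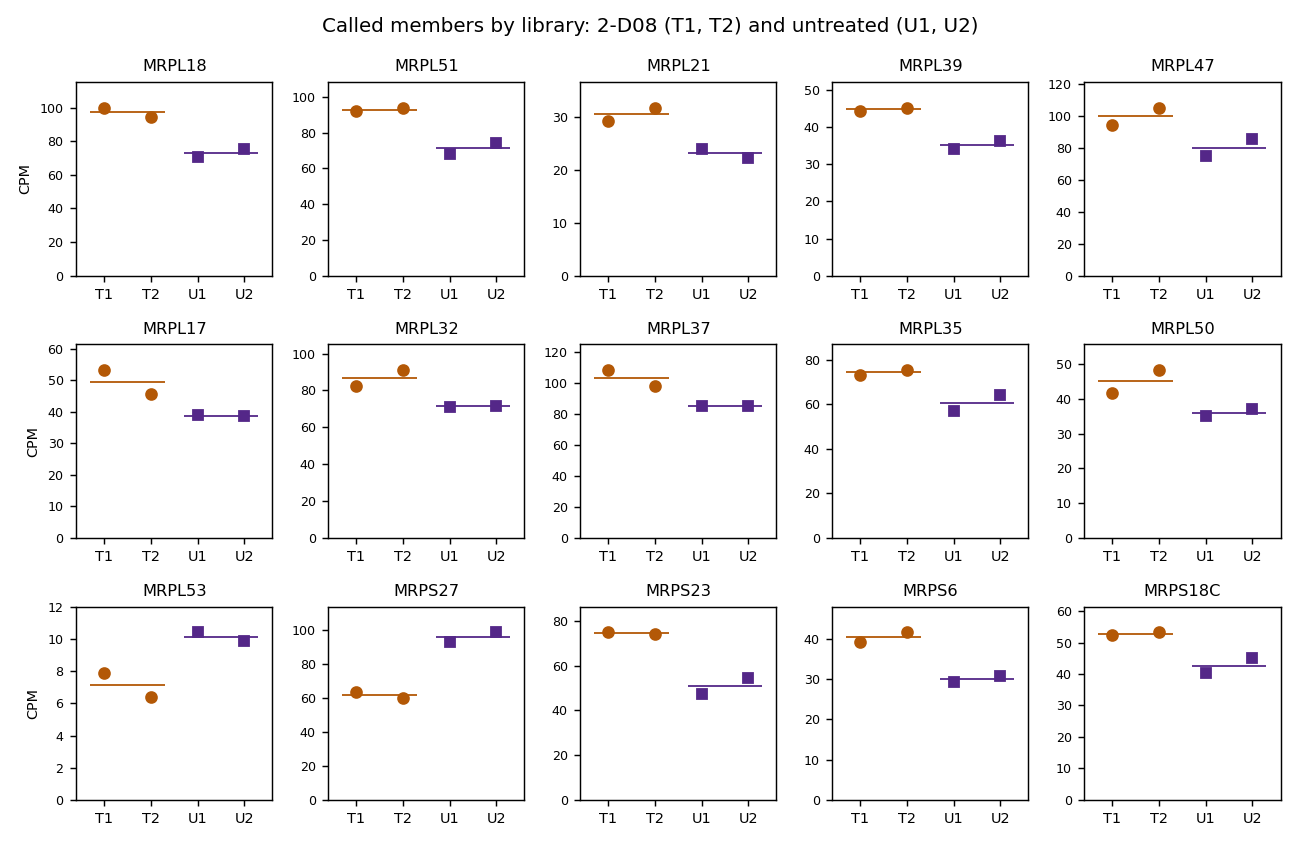
CPM (y axis, from 0) of the 15 called members in each library, 2-D08 replicates 1 and 2 (T1, T2, circles) and untreated replicates 1 and 2 (U1, U2, squares), with horizontal lines at group means. MRPS27 and MRPL53 lie lower in both 2-D08 libraries and the other 13 higher, with no overlap between groups. The genes shown were picked by a test on these same libraries.

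Calls and medians were also counted by origin, beside 33.9% of all tested genes called; the difference between the classes was not tested. In the large subunit, 6 of 30 with a counterpart were called, each higher, and 5 of 19 specific to mitochondria, 4 higher and MRPL53 lower, with medians of 0.06 and 0.13. In the small subunit, 2 of 18 with a counterpart were called, each higher, and 2 of 11 specific to mitochondria, MRPS23 higher and MRPS27 lower, with medians of 0.01 and 0.19 and 9 of 18 and 9 of 11 positive values.

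Many members overlap other genes in position or have pseudogenes, and no source used here says whether reads were assigned by strand. Exons of 41 members overlap exons of another gene, 29 of them on the opposite strand and 16 on the same strand, and 34 members have named pseudogenes. MRPS27 overlaps PTCD2 on the opposite strand, which had 27.4 and 27.1 CPM in the 2-D08 libraries and 28.4 and 32.4 CPM in the untreated ones and was not called (log2 fold change -0.15, edgeR's adjusted p = 0.36). MRPS18C overlaps ABRAXAS1, which was called lower (-0.65, adjusted p = 0.00118), the opposite of MRPS18C itself. MRPL32, MRPL37, MRPL47 and MRPL51 overlap other genes on the opposite strand, and MRPL53 and MRPS6 overlap CCDC142 and SLC5A3 on the same strand. For these 8 called genes the counts may hold reads of the partner; MRPS23, MRPL18, MRPL21, MRPL39, MRPL17, MRPL35 and MRPL50 overlap no exon of another annotated gene, although MRPL35 has 4 named pseudogenes and MRPL50 has 3.

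Some of these genes start back to back with a neighbour. Within 1000 bases, 18 members have a neighbour that starts head to head, and 4 of these neighbours were called, beside 33.9% of all tested genes. MRPL46 and MRPS11 each count as the other's neighbour. The share of all genes with such a neighbour was not counted. MRPL18 starts 210 bases from TCP1, a subunit of the cytosolic chaperonin, which had 730 and 736 CPM in the 2-D08 libraries, against 498 and 531 CPM in the untreated ones (log2 fold change 0.51, edgeR's adjusted p = 0.000562). Here both genes of the pair were called higher. EME1 beside MRPL27 (0.60) and SKA3 beside MRPL57 (0.83) were called higher, with log2 fold changes of -0.04 and 0.34 for the members, which were not called. SARS2, the mitochondrial seryl-tRNA synthetase, starts 181 bases from MRPS12 and was called lower at 5.25 and 3.31 CPM in the 2-D08 libraries, against 8.29 and 8.05 CPM in the untreated ones (-0.98), while MRPS12 stood at 0.18 and was not called. MRPL46 and MRPS11, which start 320 bases apart and serve different subunits, stood at 0.33 and 0.32, and neither passed the test. PTCD2, 133 bases from the start of MRPS27, was not called.

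The rest of the mitochondrial translation machinery was read from lists of genes that build or serve the ribosome, each count to be set against 33.9% of all tested genes called, 17.1% higher and 16.9% lower. The 5 mitoribosome proteins with other names (DAP3, PTCD3, CHCHD1, AURKAIP1, GADD45GIP1) had log2 fold changes of -0.04 to 0.18; edgeR and DESeq2 called none at the adjusted threshold or at an unadjusted p under 0.05. In edgeR, 2 were called higher after removal of GC and length trends and 1 without 2-D08 replicate 2. Of 25 assembly factors, 5 were called higher and 3 lower (32%), a share near that of all tested genes. MPV17L2, an inner membrane protein needed to assemble the ribosome, had 26.1 and 20 CPM in the 2-D08 libraries, against 12.7 and 10.8 CPM in the untreated ones (0.95 ± 0.17 SE, edgeR's adjusted p = 0.000703). It was called in every other setting. MALSU1, which binds the large subunit during assembly, was called higher (0.38) on counts but stood at -0.03 on both TPM scales, and METTL15, a methyltransferase of the small subunit rRNA, was called lower (-0.37). With either untreated library left out, MPV17L2 was the only assembly factor called.

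Of 14 translation factors, MTRF1L, a release factor, was called higher (0.30), and OXA1L, the inner membrane insertase, and MRRF, the recycling factor, were called lower (-0.33 and -0.30); none of these calls remained without untreated replicate 1. Of 15 genes of mitochondrial transcription and RNA stability, 6 were called, each higher (40%, beside 17.1% of all tested genes called higher). FASTKD5, an RNA-processing factor, had 40.0 and 40.2 CPM in the 2-D08 libraries, against 27.0 and 25.0 CPM in the untreated ones (log2 fold change 0.62, edgeR's adjusted p = 0.00101). PNPT1, the mitochondrial polynucleotide phosphorylase, stood at 0.54, and TRMT10C, a subunit of mitochondrial RNase P, at 0.42. FASTKD5 and PNPT1 were the 2 still called without untreated replicate 1.

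Of 20 mitochondrial aminoacyl-tRNA synthetase genes and their kin, 2 were called higher and 4 lower, with a median of -0.20; the share called (30%) was near the 33.9% of all tested genes. WARS2, for tryptophan, had 13.1 and 11.3 CPM in the 2-D08 libraries, against 19.8 and 19.9 CPM in the untreated ones (log2 fold change -0.72, edgeR's adjusted p = 0.00248). SARS2 and IARS2, for serine and isoleucine, stood at -0.98 and -0.37. Without untreated replicate 1 there were 2 called, both lower. Of 17 import and quality-control genes, 3 were called higher and 1 lower (23.5%). LONP1, the matrix protease, had 95.3 and 75.0 CPM in the 2-D08 libraries, against 155 and 140 CPM in the untreated ones (-0.80, adjusted p = 0.000146), and HSPE1, the matrix co-chaperonin, and TIMM23, a channel of the inner membrane, stood at 0.56 and 0.42. TOMM40, named after its values were seen, was the remaining gene called higher (0.53). Without untreated replicate 1, HSPE1 and TIMM23 were no longer called. In that fit HSPE1 stood at 0.45 and LONP1 at -0.72.

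Of 8 tested transcription factors and coactivators known for genes of mitochondrial function, 2 were called (25%), beside 33.9% of all tested genes. GABPB1, the partner of GABPA, was called higher at 33.9 and 40.8 CPM in the 2-D08 libraries, against 24.3 and 29.7 CPM in the untreated ones (log2 fold change 0.48, edgeR's adjusted p = 0.014). PPRC1, a coactivator, was called higher at 0.33 (adjusted p = 0.0327). Both calls were lost without untreated replicate 1. NRF1 (0.13), GABPA (-0.12), YY1 (0.15), ESRRA (0.39), PPARGC1B (0.12) and MYC (-0.21) were not called, and PPARGC1A lay below the filter on low counts. Beside the other large families of the cell, 6 of 78 cytosolic ribosomal protein genes (7.69%) and 10 of 81 nuclear-encoded oxidative phosphorylation genes (12.3%) were called, with medians of -0.03 and 0.00.

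**Figure D3:**
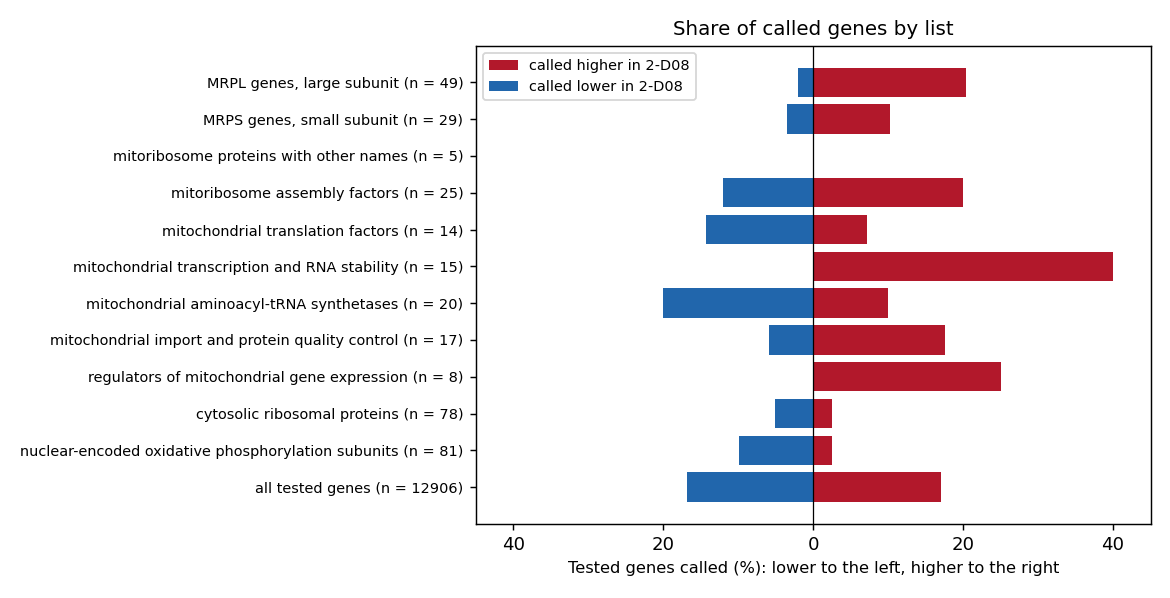
Share of tested genes (x axis, %) called higher (red, right) or lower (blue, left) after 2-D08 in each list, with the number tested in brackets, beside all tested genes in the lowest bar. The large subunit stood at 20.4% higher and 2.04% lower and the small subunit at 10.3% and 3.45%, against 17.1% and 16.9% of all tested genes.

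The libraries of a group differed from each other along GC content. Over the 78 members, the log2 ratio of 2-D08 replicate 2 over replicate 1 went with the GC content of the transcript at Pearson's r = -0.72 (Spearman's rho = -0.73), and that of untreated replicate 2 over replicate 1 at r = -0.59 (rho = -0.62). These run across genes that share the same libraries and are a description. Over the 12536 and 12501 tested genes with a GC value and reads in both libraries, r was -0.48 and -0.22. The log2 fold change between groups went with GC content at r = -0.20 over the members. MRPS12, with 61.6% GC, had the widest gap between the 2-D08 libraries, at 16.6 and 9.53 CPM, against 11.7 and 10.8 CPM in the untreated libraries. Of 78 members, 50 were lower in 2-D08 replicate 2 than in replicate 1. With the trends on GC content and transcript length removed from each library, 16 large subunit genes were called higher and 4 lower, and 6 small subunit genes higher and 4 lower, while 47.4% of all tested genes were called. In that fit MRPL50 and MRPS18C were no longer called, and every other called member kept its call. Beyond that fit, the part of GC content in the results of single genes was not tested.

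**Figure D4:**
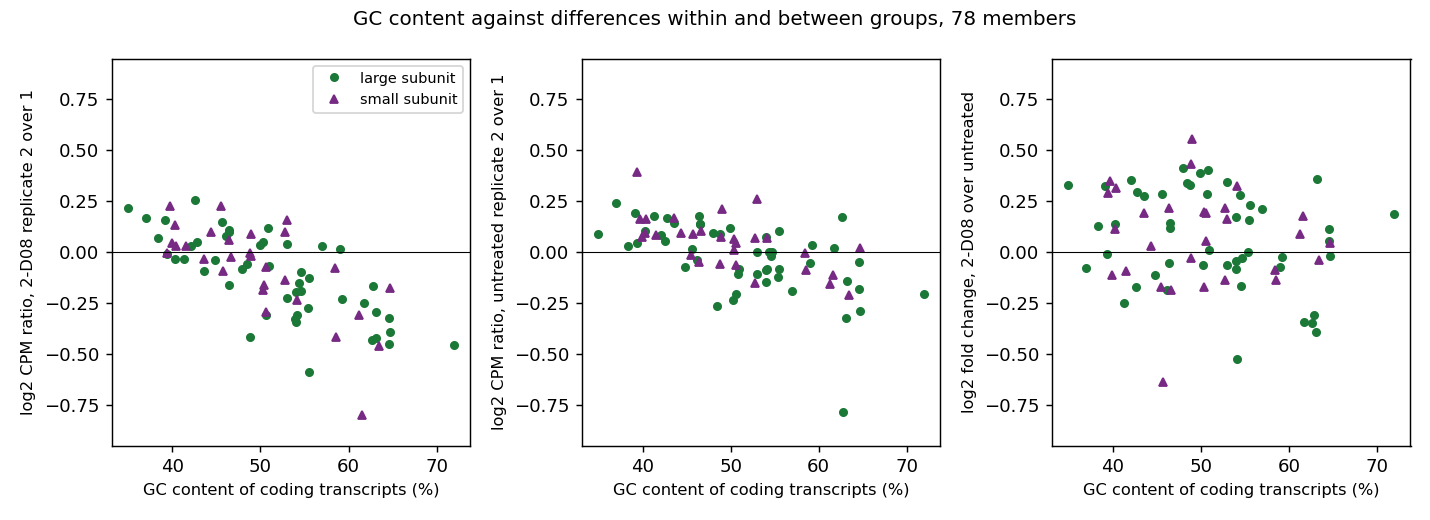
Median GC content of each member's coding transcripts (x axis, %) against 3 log2 ratios of CPM (y axes): 2-D08 replicate 2 over 1, untreated replicate 2 over 1, and 2-D08 over untreated. Each point is a member (circles large subunit, triangles small subunit); the first panel slopes down (r = -0.72), the second less so (r = -0.59) and the third little (r = -0.20).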

How the data were processed

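RNA was sequenced in 4 libraries of SK-LMS-1 cells, 2 exposed to 2-D08 and 2 untreated, made from total RNA after depletion of ribosomal RNA, per the labels' protocols. Nothing states that replicates were grown as separate cultures, and p-values therefore cover only library-to-library spread, which can be technical. The submitters' processing notes name the GRCh38 build, DESeq2, STAR 2.7.8a and cutadapt 3.4. The read counter and its use of strand were not given in the labels or headers. The authors deposited whole-number read counts per gene, TPM values, and a further table of transformed values that behave as log2 values, which were deposited as normalised counts and served only in an alternative.

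From the counts, 12906 genes were kept by filterByExpr (minimum count 10), scaled by TMM factors and tested with edgeR 4.0.16 (quasi-likelihood, robust, two-sided) in R 4.3.3 with Benjamini-Hochberg adjustment. Standard errors came from the F statistic, and 95% intervals, which are not adjusted for the number of genes, cover the spread between libraries. Alternatives used RLE factors, library size only, other filters, DESeq2 1.42.0, limma 3.58.1 (voom, log2 of TPM plus 1 or 0.1, and the deposited transform), thinned counts, the replicate block and leaving out each library. Gene positions, GC content and overlaps came from GENCODE release 29 and promoters from RefSeq. The script was tested on simulated counts.

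The members and lists were chosen with earlier results of these data known. In each subunit, the text names up to 8 called genes with the smallest p in each direction, the 3 with the highest TPM, the uncalled gene with the largest difference and those of the structural groups. From companion lists it names up to 3 called genes and every tested regulator. Other genes are named for their overlap, position or list and were chosen after their values were seen. Mitochondrially encoded genes are not analysed here.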

Additional observations from a re-analysis of the deposited data

How the results depend on the processing

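Removing GC and length trends and halving the mostly even counts were chosen after the data were seen. Against 10 large subunit genes called higher in the analysis reported above, limma on log2(TPM + 1) and on log2(TPM + 0.1) called 0 and 0, thinned counts 5, the replicate block 16 and removal of GC and length trends 16; leaving out each library gave 0 to 15. Against 1 called lower, library size only, DESeq2, thinned counts and both TPM fits gave 0, a mean of at least 5 CPM and limma-voom 2, the replicate block 5 and trend removal 4; leaving out each library gave 0 to 4. Against 3 small subunit genes called higher, each TPM fit gave 1, the replicate block 9 and trend removal 6, with 0 to 7 on leaving out each library. Against 1 called lower, trend removal gave 4 and leaving out each library 1 to 3. The share of all tested genes called also differed between these fits, beside 33.9% in the analysis reported above. It was 12.4% and 12.5% on the TPM scales, 27.8% by DESeq2 and 30.2% on thinned counts. Library size only gave 32.6%, limma-voom 35.7% and the 5 CPM filter 36.6%. Trend removal gave 47.4% and the replicate block 48.3%. The causes were not tested. The replicate block called 6239 of all genes, beside 4376 without it; deviations of same-numbered libraries correlated at 0.26 over 12906 genes and at 0.41 over the 10502 with a mean of at least 5 CPM, and the labels do not say that numbers pair the libraries.

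The median log2 fold change of the large subunit (0.11) was 0.03 on log2(TPM + 1), 0.04 on log2(TPM + 0.1), and 0.07 with voom and after trend removal. It ran from -0.02 to 0.15 on leaving out each library, turning sign without 2-D08 replicate 1. That of the small subunit (0.09) was 0.05 with voom, 0.01 on each TPM scale and 0.13 after trend removal, and ran from -0.04 to 0.16 on leaving out each library, turning sign without the same library. The medians of all tested genes were -0.04 on log2(TPM + 1) and -0.05 on log2(TPM + 0.1). With 1 library left in a group, that library is assumed to vary like the other group. No called member turned sign in any of the 17 alternatives; MALSU1 turned to -0.03 on both TPM scales. Of 29 called companion genes, 22 were not called without untreated replicate 1 and 5 were called in every alternative (MPV17L2, FASTKD5, PNPT1, WARS2 and LONP1). Over all genes, calls numbered 1598 and 1608 on the TPM scales, 6115 after trend removal, and 1866, 2695, 6077 and 4733 without untreated replicate 1, untreated replicate 2, 2-D08 replicate 1 and 2-D08 replicate 2. Log2 fold changes of the members had a median SE of 0.11, which with 2 libraries a group limits the size of difference that can be detected.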
